A study of Mus musculus with 145 samples.

Results

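Stfa1, Stfa3, BC100530 and BC117090 are 4 genes of the stefin A cluster on mouse chromosome 16, and their RNA was followed in the dorsal skin of mice exposed to ultraviolet light from a tanning canopy. They are 4 of the 55416 genes in the deposited count table, and all 4 were among the 18677 genes that passed the filter on low counts. The 4 genes were selected on their differences between exposed and sham-handled skin in these same libraries and because they share sequence, so those differences are given as a description, with no test. The mice received 5, 10, 20 or 40 mJ/cm2 of a lamp spectrum that was mostly UVA with a small share of UVB, or were handled as sham controls with no dose. Skin was taken at 0, 6, 24, 48, 72 or 96 h, with sham animals of its own at every time. This gave 145 libraries, each from 1 animal, in 30 groups: 25 groups of 5 animals and 5 groups of 4 (20 mJ/cm2 at 48 h and each of the 4 doses at 96 h). The sham and exposed groups share the tissue, the handling and the library kit. The sources used here do not give strain, sex or age.

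Stefins are small proteins without a signal peptide that stay in the cytosol and block papain-like cysteine proteases, among them the lysosomal cathepsins. Human epidermis makes a single stefin A, cystatin A, which is cross-linked into the cornified envelope of the outermost keratinocytes, whereas the mouse has a cluster of tandem copies. In the mouse the copies are known from the epidermis and from myeloid cells, neutrophils above all, and whole skin holds both kinds of cell.

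The copies differ so little that it matters which reads can be told apart, so the same 75 coding bases of each gene, the length of 1 read, are shown here. They were read from the GENCODE vM21 transcripts (GRCm38), lie in coding exons, and are joined across 1 intron, so the genomic span is longer than the sequence. Capitals mark bases that differ from Stfa1 after alignment. The spans are chr16:36277205-36280483 on the plus strand for Stfa1, and chr16:36452235-36455337, chr16:36364296-36367492 and chr16:36323005-36334287 on the minus strand for Stfa3, BC100530 and BC117090.
Stfa1: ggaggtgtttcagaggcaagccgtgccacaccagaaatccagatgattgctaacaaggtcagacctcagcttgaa
BC100530: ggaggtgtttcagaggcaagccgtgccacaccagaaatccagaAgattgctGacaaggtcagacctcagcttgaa
BC117090: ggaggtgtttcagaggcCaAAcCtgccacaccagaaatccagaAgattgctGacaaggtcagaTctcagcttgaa
Stfa3: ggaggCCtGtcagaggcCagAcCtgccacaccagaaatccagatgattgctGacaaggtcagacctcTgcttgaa
BC100530 differs from Stfa1 at 2 of these 75 bases, BC117090 at 7 and Stfa3 at 8. Over the whole coding sequence the identity was 97.9% between Stfa1 and BC100530, 95.2% between BC100530 and BC117090 and 93.5% between Stfa1 and BC117090. Stfa3 stood further off, with 78.0% to 79.6% identity to the other 3.

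What the copies share sets how the counts can be read. Of the 75-base windows in its transcripts, Stfa1 shares 9.2% exactly with another gene, BC100530 16.3% and BC117090 20.4%, whereas Stfa3 shares 0 of 338. The deposited values are expected counts, in which a read that matches several genes is split between them by estimate. Of the values above 0, 99.3% were not whole numbers for Stfa1, 97.2% for BC100530 and 100.0% for BC117090, against 1.4% for Stfa3. The level of Stfa3 therefore rests on reads given to it alone, while those of the other 3 hold reads divided among near-identical copies and are uncertain to that extent.

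Upstream of the start site a stretch of the promoter is also shared. RefSeq (GRCm38.p6) holds the start-site sequence of 3 of the 4 genes. Capitals mark the letters TTNNGNAA, a loose form of the site bound by C/EBP proteins, on either strand.
Stfa1: tgcagtaagacTTGCCTAAggccacactca
BC100530: tgcagtaagacTTGCCTAAggccacactca
Stfa3: tgcagtaagatttgcctgaggccacactca
These 30 bases are at chr16:36277028-36277057 for Stfa1 (plus strand), chr16:36367640-36367669 for BC100530 and chr16:36455485-36455514 for Stfa3 (both minus strand). They were identical in Stfa1 and BC100530, and the 2 bases at which Stfa3 differs end the match there. Such a match is common, since 40.7% of 32544 promoters of the same length hold one. The letters TGANTCA of AP-1 were found in the Stfa3 promoter, 29 bases past the start, and not in the other 2 windows, against 7.8% of all promoters.

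Library depth was uneven. Totals ran from 0.18 to 64.6 M counts (megacounts) with a median of 11.1 M, and the 2 shallowest libraries stood apart (10 mJ/cm2 at 6 h, replicate 5, and 20 mJ/cm2 at 0 h, replicate 5). Library titles end in R1_001 or R1, and this ending was a term in every fit. The tissue label matched the marker genes: keratinocyte genes led by Krt5, Krt14 and Krt15 were present in every sham and 40 mJ/cm2 library, and so were skeletal muscle genes led by Acta1, Ckm and Myh4, which in dorsal skin mark the muscle sheet beneath it. Since the RNA is from whole skin, more cells of a type and more RNA per cell cannot be told apart in any value below.

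Levels are in CPM, counts scaled to a common library size. Compared between genes as the median CPM per kilobase of annotated exons, Stfa3 (522) and BC100530 (355) were the abundant copies in sham skin at 0 h, Stfa1 (23.1) came next and BC117090 (2.77) was scarce. At 40 mJ/cm2 and 48 h the same scale gave 402 for BC100530, 146 for Stfa3, 55.3 for Stfa1 and 4.86 for BC117090. The length used pools the exons of all transcripts of a gene: 790 bases for BC100530, 710 for Stfa1, 412 for Stfa3 and 387 for BC117090. The order of Stfa3 and BC100530 at 0 h depends on this scaling, since their unscaled medians were 215 and 280 CPM. Ranked by mean log2 CPM over the 30 groups, Stfa1 was highest at 40 mJ/cm2 and 72 h (6.02), then at 40 mJ/cm2 and 48 h (5.30) and in sham skin at 0 h (4.29), and lowest in sham skin at 96 h (0.11). BC100530 also ranked highest at 40 mJ/cm2 and 72 h (9.10) and lowest in sham skin at 96 h (1.44). The order of Stfa3 opened with sham skin at 0 h (8.15) and 3 of the exposed groups of 0 h before 40 mJ/cm2 at 72 h (7.51), whereas BC117090 was highest at 40 mJ/cm2 and 6 h (2.55). In each gene's order all 29 pairs of neighbouring groups overlapped in their libraries.

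**Figure D1:**
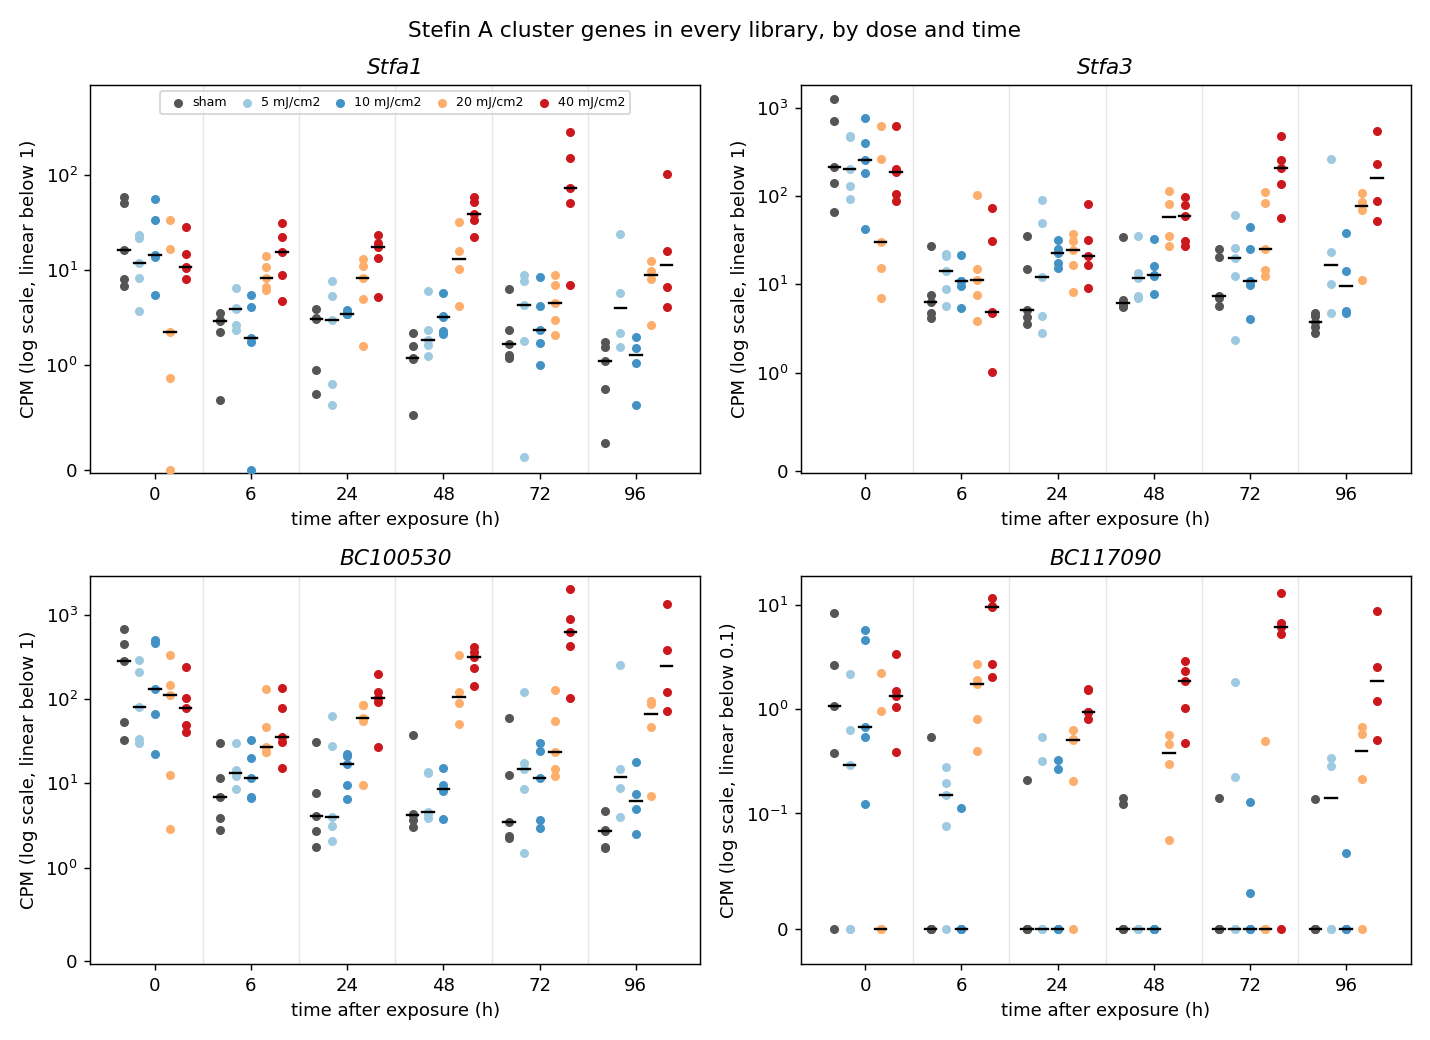
CPM of each gene in all 145 libraries by time after exposure in h, with 1 point per library, colours for dose and a black bar at the group median; the axis is logarithmic and turns linear below 1 CPM (below 0.1 for BC117090). Among sham groups every gene has its highest median at 0 h. At 48 h all 5 libraries of 40 mJ/cm2 lie above all sham libraries for Stfa1, BC100530 and BC117090.

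The first large difference was in sham skin, which had no exposure. Skin taken at 0 h held far more stefin RNA than skin taken at any later time. Stfa1 stood at 6.84, 50.7, 59.0, 7.99 and 16.4 CPM in the 5 sham libraries of 0 h and at 0.67 to 3.53 CPM in those of 6 h. Stfa3 stood at 67.0, 721, 1280, 140 and 215 CPM at 0 h and at 4.11 to 27.2 CPM at 6 h. BC100530 went from 32.8, 454, 687, 53.6 and 280 CPM to 2.81 to 29.8 CPM. For these 3 genes the groups of 0 h and 6 h did not overlap. BC117090 had 0.0, 2.67, 8.40, 0.38 and 1.07 CPM at 0 h and was at 0 in 4 of 5 libraries at 6 h, with 0.536 CPM in the other. Within the 0 h group replicates 2 and 3 were the highest for each of the 4 genes, and the highest Stfa1 library was 8.63 times the lowest.

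The sham libraries are 1 side of every contrast on which the genes were chosen, so genes low in later sham skin were favoured, and these differences too are a description, with no test. By edgeR's quasi-likelihood fit over all 18677 genes, all 4 were called lower than at 0 h at each of the 5 later times, beside 1.68% of all genes at 6 h, 2.54% at 24 h, 4.18% at 48 h, 2.05% at 72 h and 3.98% at 96 h. Nothing is read from that count, and the 5 comparisons share the sham libraries of 0 h. The log2 difference of Stfa3 was -5.61 ± 0.89 (SE) at 6 h and -6.91 ± 0.97 at 96 h. That of Stfa1 was -3.43 ± 0.62 and -4.63 ± 0.68, and that of BC100530 was -4.77 ± 1.09 and -6.73 ± 1.23. The median over the 4 genes was -4.74 at 6 h, -4.79 at 24 h, -4.88 at 48 h, -4.67 at 72 h and -6.01 at 96 h, while the median over all genes lay between -0.01 and 0.03.

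Single libraries moved these sizes. Replicate 3 of 0 h, the highest library, carried part of the size in Stfa3: without it the difference was -4.86 at 6 h and -6.22 at 96 h. Among the later libraries, leaving out replicate 3 of 6 h, replicate 5 of 24 h, replicate 3 of 48 h or replicate 1 of 72 h, each high for its group, took BC100530 to -5.60, -6.20, -6.14 and -6.14. The calls for Stfa1 and Stfa3 passed in each of the 30 fits that left out 1 sham library, at every time. For BC117090 the difference was -4.70 ± 1.16 at 6 h, which rests on few reads: 143 counts in the 5 sham libraries of 0 h and 4, 8, 3, 2 and 2 counts in those of the later times. Without replicate 1 of 6 h, the only library of that time with a read, the difference was -7.91. Its call was lost at 6 h without replicate 3 of 0 h or without replicate 2, 3, 4 or 5 of 6 h. At 24 h it was lost without replicate 1 or 2 of that time, at 48 h without replicate 3 of 0 h or replicate 1, 2 or 4 of that time, and at 96 h without replicate 3 of 0 h or replicate 1 or 5 of that time. The call of BC100530 was lost at 48 h without replicate 1 and at 72 h without replicate 3 of 0 h or replicate 2, 4 or 5 of 72 h.

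Other genes moved with the stefins between sham skin of 0 h and later sham skin. Of 21 cornified envelope genes tested, 8 were lower at 6 h, 12 at 24 h, 15 at 48 h and 12 at both 72 and 96 h, with 0 higher at any of them. Of 14 skeletal muscle genes, 5, 8, 10, 8 and 6 were higher at those times. The share of all genes called higher is not given here, so nothing is read from these counts. The summed level of the 14 muscle genes was 14400 to 27000 CPM in the sham libraries of 0 h and 23700 to 54500 CPM in those of 6 h. The summed level of 10 basal and suprabasal keratinocyte genes was 14300 to 27200 CPM at 0 h and 6860 to 12300 CPM at 6 h, where the groups did not overlap. The 18 neutrophil genes summed to 140 to 273 CPM at 0 h and 172 to 265 CPM at 6 h. Of the 13 tested, 0 were called by edgeR at 6 h, with 1 at an unadjusted p under 0.05. At 24, 48, 72 and 96 h, 2, 3, 3 and 1 of the 13 were called lower, with 0 higher. The list's medians at these times were -1.08, -1.62, -1.28 and -0.67. Of 12 stressed keratinocyte genes 2, 6, 5, 3 and 4 were lower at the 5 later times, with 0 higher. The part of these shifts in the stefin difference was not tested. Within libraries of 1 title ending, an alternative added after seeing the data, every one of the 4 genes kept a lower value at each later time in both sets. The sizes differed between the sets, which hold 2 or 3 libraries a side. Stfa3 differed by -5.71 at 6 h in R1_001 libraries and by -5.10 in R1 libraries, but by -6.50 and -3.11 at 24 h. Stfa1 differed by -4.04 and -2.25 at 6 h and by -4.60 and -1.79 at 24 h.

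At 0 h each of the 4 genes had a negative difference from sham at each dose, with wide overlap between libraries. The median of Stfa3 was 215 CPM in sham skin, 205 at 5, 259 at 10 and 186 at 40 mJ/cm2, and 30.4 at 20 mJ/cm2, where 3 of 5 libraries were below the lowest sham library. The median of BC100530 was 280 CPM in sham skin and 80.0, 132, 113 and 78.7 CPM at 5, 10, 20 and 40 mJ/cm2. The 113 CPM at 20 mJ/cm2 is the value of replicate 5, a library of 0.204 M counts with 22 counts of BC100530. The same library, with 3 counts of Stfa3, was 1 of the 3 below the lowest sham library. The median log2 difference over the 4 genes was -1.10, -0.28, -1.32 and -1.0 in the order of dose. BC117090 had 30 counts at 5 mJ/cm2 against 143 in sham skin, a ratio of 0.251 (95% exact interval 0.163 to 0.374). The interval covers counting error only and not the spread between animals: 79 of the 143 sham counts were in replicate 3. Against sham the 40 mJ/cm2 group differed on the log2 scale by -0.90 ± 0.79 in Stfa1, -1.09 ± 0.98 in Stfa3, -1.60 ± 1.01 in BC100530 and -0.77 ± 1.14 in BC117090. No gene of the table was called higher at 0 h at any dose (0.0% of genes), and 0 of the 4 was called either way. At this time 831 genes had an unadjusted p under 0.05 at 40 mJ/cm2, none of them 1 of the 4.

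At 6 h after 40 mJ/cm2 the rarest copy stood furthest above sham. BC117090 was at 2.04, 9.54, 2.69, 9.68 and 11.6 CPM, while 4 of the 5 sham libraries held no read of it and the other held 0.536 CPM. Summed over libraries this was 460 counts against 4, a ratio of 121 with a 95% exact interval of 47.1 to 447 that covers counting error only. Stfa1 was at 4.76, 15.7, 8.97, 31.2 and 22.6 CPM against 0.67, 2.92, 3.53, 2.96 and 2.21 CPM in sham skin, a log2 difference of 2.7 ± 0.47 with no overlap. BC100530 was at 15.3, 35.4, 30.8, 136 and 77.8 CPM against 2.81, 6.95, 29.8, 11.6 and 3.93 CPM, a difference of 2.34 ± 0.67 with 4 of 5 libraries above all sham. Stfa3 did not follow: it was at 1.02, 4.77, 4.82, 73.9 and 31.0 CPM against 4.69, 7.64, 27.2, 6.26 and 4.11 CPM, a difference of 1.18 ± 0.98 with libraries on both sides of sham. Its value within R1_001 libraries was -1.82 and within R1 libraries 3.34. By edgeR's test 3 of the 4 were called higher (Stfa1, BC100530 and BC117090) where 2.1% of all genes were. Nothing is read from that count, or from the counts of the 4 at other times and doses below, because the genes were chosen on these contrasts. The count at 6 h was 2 without any 1 of sham replicates 1, 2, 4 and 5 or exposed replicates 2, 4 and 5, each of which ended the call of BC100530. Without sham replicate 3 the difference of BC100530 was 3.17.

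At 24 h Stfa1 and BC117090 were above all sham libraries, while BC100530 and Stfa3 overlapped sham. Stfa1 stood at 19.4, 17.4, 13.4, 23.5 and 5.25 CPM against 0.727, 3.06, 0.948, 3.11 and 3.94 CPM, a log2 difference of 2.74 ± 0.62 with no overlap. BC100530 stood at 199, 104, 91.6, 121 and 26.9 CPM against 1.77, 7.70, 2.76, 4.15 and 31.1 CPM, a difference of 3.32 ± 0.92, and sham replicate 5 lay above exposed replicate 5. BC117090 had dropped to 0.796 to 1.55 CPM, still above all sham libraries, with 160 counts against 8 and a ratio of 15.9 (95% exact interval 7.89 to 37.5). All 8 sham counts were in replicate 5, and without it the fitted log2 difference went from 4.00 to 7.36. Stfa3 stood at 9.20 to 82.0 CPM against 3.53 to 35.4 CPM, a difference of 1.19 ± 0.82, with 1 of 5 libraries above all sham. It was 2.51 within R1_001 libraries and -0.45 within R1 libraries. Stfa1 and BC117090 were called, 2 of the 4, beside 1.62% of all genes. Without sham replicate 1 the count was 0, and without sham replicate 2, 3 or 4 or exposed replicate 1 or 5 it was 1. With the 4 genes summed into 1 row, which removes the split of shared reads among them, the difference was 2.12 ± 0.66 at 6 h and 2.56 ± 0.82 at 24 h, and neither sum was called.

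By 48 h all 4 genes were called higher, beside 4.0% of all genes, and nothing is read from that count either. All 4 calls passed in each of the 10 fits that left out 1 library, which describes only how far they rest on single libraries. BC100530 stood at 233, 318, 412, 144 and 359 CPM in the 5 exposed libraries against 3.70, 3.08, 37.9, 4.40 and 4.19 CPM in sham skin. Its log2 difference was 4.92 ± 0.69, and it was 6.24 without sham replicate 3, the one high sham library. Stfa1 stood at 34.0, 52.3, 59.3, 22.5 and 39.3 CPM against 0.529, 1.16, 2.20, 1.19 and 1.60 CPM, a difference of 4.88 ± 0.53. For both genes the lowest exposed library lay several times above the highest sham library. Stfa3, at 31.0, 60.3, 79.7, 27.5 and 97.5 CPM against 6.09, 5.76, 34.9, 5.59 and 6.66 CPM, had 3 of 5 libraries above all sham. Its difference was 2.37 ± 0.57, and 3.25 without sham replicate 3. BC117090 stood at 0.477, 2.89, 2.32, 1.02 and 1.88 CPM, above all sham libraries, of which 3 were at 0. Its 112 counts against 3 gave a ratio of 42.3 (95% exact interval 14.1 to 208). The median difference over the 4 genes was 4.90. Summed into 1 row, the 4 genes differed by 4.14 ± 0.62.

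At 72 h the 4 genes again stood far above sham, with a wide spread among the exposed animals. BC100530 reached 2030, 428, 627, 893 and 102 CPM against 59.7, 2.37, 12.5, 3.5 and 2.25 CPM in sham skin, a log2 difference of 5.82 ± 1.23 that was 7.11 without sham replicate 1. Stfa1 stood at 286, 72.9, 50.7, 153 and 7.05 CPM against 6.38, 1.19, 2.36, 1.66 and 1.26 CPM, a difference of 5.39 ± 0.92. Stfa3 stood at 477, 139, 257, 209 and 56.7 CPM against 25.3, 7.36, 20.4, 5.63 and 7.01 CPM, a difference of 4.09 ± 0.85, and for the first time after 0 h it was above all sham libraries in all 5 animals. Replicate 5 was the lowest exposed library for each of the 4 genes. BC117090 was at 13.1, 6.70, 5.19, 6.16 and 0.0 CPM, with 278 counts against 2 and a ratio of 225 (95% exact interval 61.8 to 1870). All 4 genes were called, beside 0.948% of all genes. The count was 1, Stfa1 alone, without sham replicate 2, 4 or 5 or without exposed replicate 1 or 4, and it was 3 without sham replicate 1. Their sum differed by 5.22 ± 1.03.

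At 96 h the log2 differences of Stfa3 and BC100530 from sham were larger than at any earlier time. Sham skin of 96 h was the lowest of the 30 groups for both, with mean log2 CPM of 1.96 and 1.44. In exposed skin their means were 7.29 and 8.02, below the 7.51 and 9.10 of 72 h. Stfa3 stood at 232, 88.7, 52.2 and 555 CPM in 4 exposed animals against 4.40, 2.84, 3.77, 3.30 and 4.70 CPM in sham skin, a log2 difference of 6.01 ± 1.08. BC100530 stood at 380, 120, 72.6 and 1360 CPM against 1.72, 4.73, 2.74, 2.77 and 1.77 CPM, a difference of 7.71 ± 1.26. Stfa1 stood at 15.9, 6.70, 4.14 and 104 CPM against 1.53, 1.74, 1.10, 0.264 and 0.774 CPM, a difference of 5.21 ± 0.96. For each of the 4 genes all exposed libraries were above all sham libraries, and exposed replicate 4 was the highest. Without that replicate the difference was 4.75 in Stfa3, 5.85 in BC100530 and 3.00 in Stfa1. BC117090, with 110 counts against 2, had a ratio of 64.9 (95% exact interval 17.6 to 543) and was not called. The other 3 were, beside 0.118% of all genes. The count was 0 without sham replicate 1, 3, 4 or 5 or without exposed replicate 4, and 1 without sham replicate 2 or exposed replicate 1. The sum of the 4 genes differed by 6.79 ± 1.14. Whether the differences at 72 or 96 h exceed those at 48 h was not tested.

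**Figure D2:**
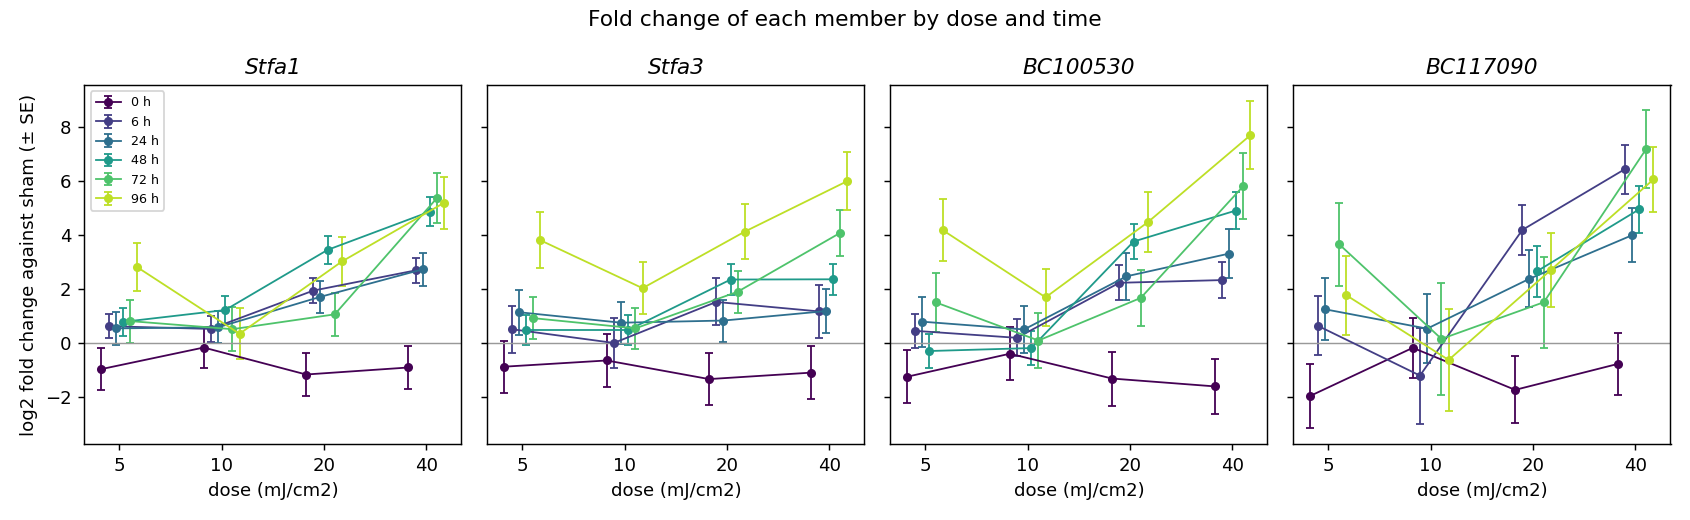
Log2 difference from sham of the same time for each gene by dose in mJ/cm2, with bars of 1 SE and a line for each time; BC117090 at 5 and 10 mJ/cm2 and 48 h, with 0 counts, is left out. The lines for 0 h stay below 0, and at 40 mJ/cm2 the values at 48, 72 and 96 h lie between 2.37 and 7.71.

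At 20 mJ/cm2 the same genes stood above sham with smaller sizes in most cases. At 6 h Stfa1 stood at 6.17 to 14.1 CPM, above all sham libraries in 5 of 5 animals, a log2 difference of 1.95 ± 0.46. BC117090 had 81 counts against 4, a ratio of 24.6 (95% exact interval 9.23 to 92.3). It was the 1 gene of the 4 called at that time, where 0.161% of all genes were. The count was 0 without sham replicate 2, 4 or 5 or exposed replicate 2, 3 or 5, and 2 without exposed replicate 4. DESeq2 called 3 of the 4 there. At 24 h 0 of the 4 was called by edgeR or DESeq2, beside 0.0696% of all genes, although 3 of them and 1303 genes in all had an unadjusted p under 0.05.

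Stfa1 and BC100530, 2 of the 4, were called at 48 h after 20 mJ/cm2, beside 0.471% of all genes. Stfa1 stood at 10.3, 32.5, 4.23 and 15.8 CPM, a log2 difference of 3.46 ± 0.52 that was 2.84 without exposed replicate 2. BC100530 stood at 89.4, 334, 50.4 and 122 CPM, a difference of 3.77 ± 0.66 that was 5.18 without sham replicate 3 and 3.11 without exposed replicate 2. Both genes were above all sham libraries in all 4 animals. The count was 1 without sham replicate 4 or 5 or without exposed replicate 2. Stfa3 stood at 27.5, 115, 35.5 and 80.6 CPM, a median of 58.0 CPM beside 60.3 CPM at 40 mJ/cm2, whereas the medians of Stfa1 were 13.0 and 39.3 CPM and those of BC100530 106 and 318 CPM at these doses. The difference between the doses was not tested.

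Late after 20 mJ/cm2 none of the 4 passed edgeR's test. At 72 h the log2 differences were 1.07 to 1.91, beside 0.0% of all genes called. DESeq2 also called 0 of the 4, and 1 of the 4 and 203 genes in all had an unadjusted p under 0.05. At 96 h Stfa3 stood at 110, 85.0, 69.9 and 11.1 CPM, a difference of 4.14 ± 1.01, and BC100530 at 95.8, 87.6, 47.1 and 7.16 CPM, a difference of 4.49 ± 1.11. Stfa1 differed by 3.03 ± 0.90, and all 4 animals were above all sham libraries for these 3 genes. Again 0.0% of all genes were called there by edgeR, with 787 genes and 3 of the 4 at an unadjusted p under 0.05, and DESeq2 called 2 of the 4.

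At 10 and 5 mJ/cm2 edgeR called 0 of the 4 at any time, as it did 0.0% of all genes. DESeq2 called 0 of them too. Before adjustment 1 of the 4 had a p under 0.05 at 10 mJ/cm2 both at 48 h and at 96 h, and at 5 mJ/cm2 this held for 1 at 72 h and 3 at 96 h, where 1737 of all genes also did. The 10 mJ/cm2 values of Stfa1 lay between -0.16 and 1.23 on the log2 scale. The 5 mJ/cm2 group at 96 h held 1 animal that stood apart: replicate 1 had 24.3 CPM of Stfa1, 263 CPM of Stfa3 and 257 CPM of BC100530, where the other 3 had 1.55 to 5.71, 4.79 to 23.2 and 4.05 to 14.9 CPM. The group's differences from sham were 2.82 ± 0.90, 3.82 ± 1.05 and 4.18 ± 1.15. BC117090 had 0 counts in all 5 libraries of both doses at 48 h, where sham skin had 3.

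The median balance between BC100530 and Stfa3 was higher than in sham skin at 40 mJ/cm2 at every time after 0 h. Within each library the CPM of BC100530 was divided by that of Stfa3, which cancels depth, and only the change of this ratio between groups is read, since the transcripts differ in length. At 0 h the median ratio was 0.39 to 0.537 in all 5 dose groups. In later sham skin it was 0.613 to 0.958. At 40 mJ/cm2 it was 6.40 (range 1.84 to 15.0) at 6 h, 2.92 (2.43 to 6.34) at 24 h, 5.24 (3.68 to 7.52) at 48 h, 3.09 (1.80 to 4.28) at 72 h and 1.51 (1.35 to 2.44) at 96 h. At 24 and 48 h all 5 ratios were above all those of sham skin (0.50 to 0.878 and 0.535 to 1.09). At 6, 72 and 96 h the ranges overlapped, because 1 sham library reached 1.85, 2.37 and 1.67. At 20 mJ/cm2 the median was 3.12 at 6 h, 2.24 at 24 h and 2.20 at 48 h, and 0.96 and 0.773 at 72 and 96 h. At 5 mJ/cm2 it was 0.588 to 0.863 over these times and at 10 mJ/cm2 0.508 to 1.24, beside the 0.613 to 0.958 of sham skin. Of the summed CPM of the 4 genes Stfa3 held 59.3% in sham skin at 0 h and 15.0% at 40 mJ/cm2 and 48 h, and BC100530 held 36.9% and 74.1%.

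**Figure D3:**
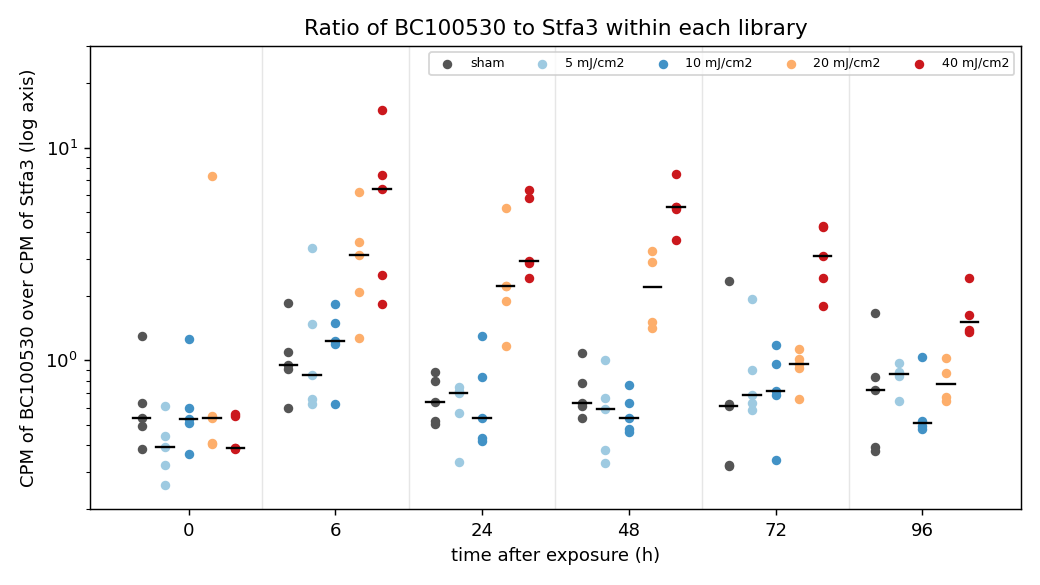
CPM of BC100530 divided by CPM of Stfa3 in each library, on a logarithmic axis, by time in h with colours for dose and a black bar at the group median. Ratios at 40 mJ/cm2 have medians of 6.40, 2.92, 5.24, 3.09 and 1.51 from 6 to 96 h, above those of sham skin at each of these times.

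Apart from Csta1, the rest of the stefin A cluster was scarce, and most of it was called higher at 48 h with the 4 genes. Of 16 names in use for the family, some of them older and newer names of 1 gene, 11 matched the table, and 10 of these genes could be tested. At 40 mJ/cm2 4 of the 10 were called higher at 6 h, 3 at 24 h, 9 at 48 h, 8 at 72 h and 3 at 96 h, with 0 lower. The 4 genes, chosen on these contrasts, made 3, 2, 4, 4 and 3 of these calls, so at 96 h all 3 were theirs. Of all genes 2.1%, 1.62%, 4.0%, 0.948% and 0.118% were called higher at those times. Stfa2 was at 3.19 to 11.6 CPM at 48 h against 0.0 to 0.142 CPM in sham skin, a log2 difference of 6.60 ± 0.95, and its median was 13.5 CPM at 72 h. Gm5483 and Stfa2l1 had 0 counts in the 5 sham libraries of 48 h and 141 and 70 counts in the exposed ones. 2010005H15Rik had 1 count against 159, and Gm5416 had 1 against 93. Gm4758, too scarce for the test, had 0 counts in sham skin at every time and 34 at 40 mJ/cm2 and 6 h, with reads in 5 of 5 animals.

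Csta1, the family member with the most annotated exon sequence, was called at none of the 6 times at 40 mJ/cm2. It stood at 12.5 to 17.0 CPM at 48 h against 6.96 to 14.6 CPM in sham skin, a log2 difference of 0.64 ± 0.49 that was 1.74 ± 0.53 at 72 h and 2.30 ± 0.74 at 96 h. In sham skin it was highest at 0 h like the 4 genes. Its median was 63.3 CPM at 0 h and 18.2 CPM at 6 h, and it fell by 1.80 ± 0.46 at 6 h (edgeR adjusted p = 0.0312) and fell by 2.67 ± 0.49 at 48 h (edgeR adjusted p = 0.00178). Stfa2 fell by 6.92 ± 1.31 at 6 h in sham skin (edgeR adjusted p = 0.00329). Of the 10 family genes, the 4 included, 6 were called lower than at 0 h in sham skin at 6, 48, 72 and 96 h and 7 at 24 h. The 4 genes made 4 of these calls at each time, beside 1.68% to 4.18% of all genes called lower.

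**Figure D4:**
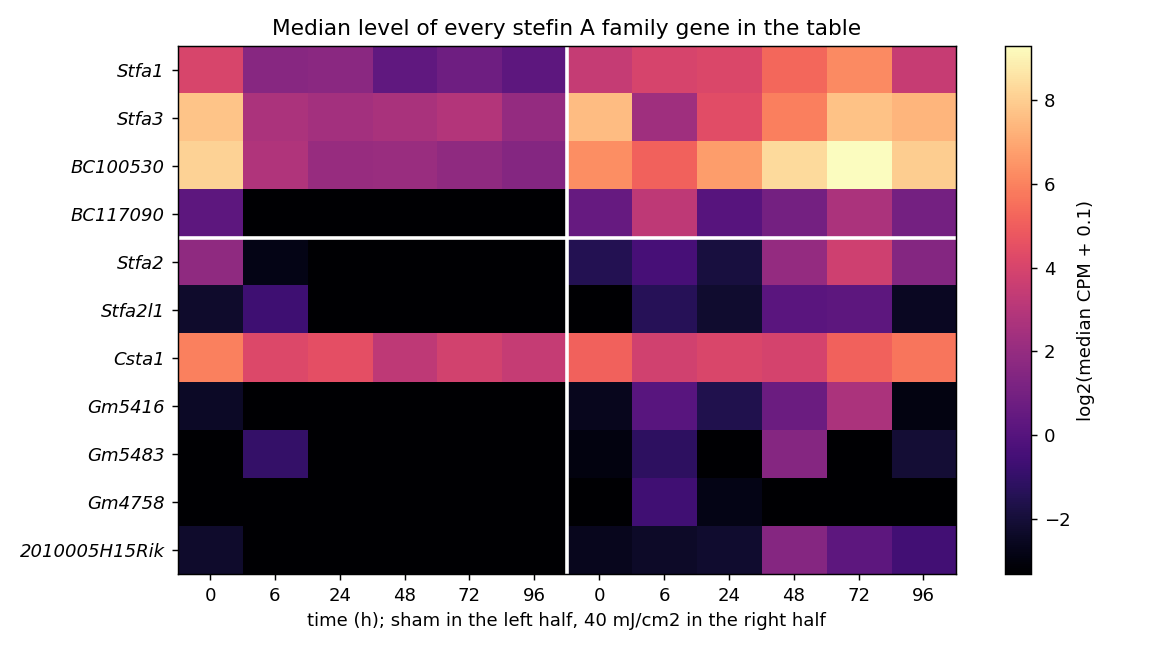
Median level of the 11 family genes found in the table, as log2(median CPM + 0.1), by time in h, with sham skin on the left and 40 mJ/cm2 on the right and the 4 genes of this account above the white line. Colours are to be compared along a row, since transcripts differ in length: the 48 and 72 h columns on the right are brighter than their sham columns for the 4 genes, Stfa2, Stfa2l1, Gm5416 and 2010005H15Rik, Gm5483 is so at 48 h, and Gm4758 is brightest at 6 h.

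Few relatives and targets of stefin A were called. Of 4 cystatins outside the family that were tested, 1 was called at 40 mJ/cm2: Cstb, stefin B of most cells, was higher at 6 h by 0.60 ± 0.14 on the log2 scale. At 48 h its difference was 0.57 ± 0.31, and those of the secreted cystatins Cst3 and Cst6 were -0.46 ± 0.36 and 0.51 ± 0.44. In sham skin Cstb fell by 0.76 ± 0.18 at 48 h (edgeR adjusted p = 0.00978), fell by 0.71 ± 0.18 at 72 h (edgeR adjusted p = 0.0189) and fell by 0.96 ± 0.18 at 96 h (edgeR adjusted p = 0.00131), each against 0 h. Among 10 cysteine cathepsins, the proteases that stefins block, 1 rose and 1 fell at 40 mJ/cm2 and 48 h. Ctss, of antigen-presenting cells, rose by 1.19 ± 0.21 and Ctsf fell by 0.65 ± 0.20, while Ctsb (0.56 ± 0.19) and Ctsl (0.39 ± 0.26) did not pass. At 6, 24, 72 and 96 h 0 of the 10 cathepsins were called by edgeR; before adjustment 0 had a p under 0.05 at 6 and 96 h, 1 at 24 h, and 3 higher and 1 lower did at 72 h. The list's median was 0.16 at 48 h.

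Genes of stressed and cornifying epidermis were also called in exposed skin. At 40 mJ/cm2 9 of 21 cornified envelope genes were higher at 48 h and 0 lower, among them Sprr2h (7.26 ± 0.63), Sprr2d (6.88 ± 0.67) and Sprr1b (5.95 ± 0.58), which code for cross-linked precursors of the envelope. Their number was 7 at 6 h, where 1 was lower, 6 at 24 h, 8 at 72 h and 3 at 96 h, and the list's median at 48 h was 1.96. Of 12 genes of stressed keratinocytes 10 were higher at 48 h, led by the keratins Krt6b (8.27 ± 0.81) and Krt16 (6.11 ± 0.61). The summed level of its 13 genes found in the table was 2850 to 9760 CPM at 40 mJ/cm2 and 268 to 504 CPM in sham skin of 48 h. At 72 h it was 527 to 19300 CPM in exposed skin. At 20 mJ/cm2 and 24 h edgeR called 0.0696% of all genes higher. It called 0 of the 10 stefin family genes, 4 of 12 stressed keratinocyte genes and 1 of 21 cornified envelope genes. The median log2 differences of these 3 lists were 2.02, 1.49 and 1.95. Before adjustment 5, 6 and 13 of their genes were higher at a p under 0.05.

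Neutrophil genes were called by edgeR at 48 and 72 h. At 40 mJ/cm2 0 of 13 neutrophil genes were called by edgeR at 6 h and at 24 h, 9 at 48 h, 8 at 72 h and 0 at 96 h. Before adjustment 0 had a p under 0.05 at 6 h, 5 at 24 h and 7 at 96 h. S100a9 (5.58 ± 0.94), S100a8 (5.34 ± 0.92), Trem1 (5.08 ± 1.03) and Cxcr2 (4.88 ± 0.67) led at 48 h, of which S100a8 and S100a9 are also made by stressed keratinocytes. At 6 h the 18 genes summed to 200 to 260 CPM in exposed and 172 to 265 CPM in sham skin. Most of this sum came from genes other than the receptors Csf3r and Cxcr2. In sham skin of 6 h these 2 stood at 8.78 to 23.9 CPM and 1.04 to 6.67 CPM, so the sum is a coarse measure. At 48 h they summed to 94.0 to 434 CPM against 122 to 183 CPM, and at 72 h to 94.0 to 1180 CPM against 120 to 163 CPM. Ly6g, a defining neutrophil gene, was too scarce here to tell groups apart. At 6 h it was at 0 in 5 of 5 exposed and 2 of 5 sham libraries, and at 48 h in 3 of 5 and 5 of 5. At 72 h, where 8 neutrophil genes were called, it was still at 0 in 3 of 5 exposed libraries, and its highest value there was 1.54 CPM.

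Across exposed animals Stfa1 and neutrophil genes were high together in some groups and not in others. Exposed replicates 1 and 4 of 72 h, the highest in Stfa1 (286 and 153 CPM), were also the highest of their group in Csf3r, a granulocyte receptor gene (78.9 and 152 CPM), and in Krt6b (3810 and 4260 CPM). Replicates 2 and 3 of 72 h had 72.9 and 50.7 CPM of Stfa1 with 16.3 and 5.40 CPM of Csf3r. At 48 h replicate 3 was the highest in both Stfa1 (59.3 CPM) and Csf3r (99.8 CPM), and replicate 2, with 52.3 CPM of Stfa1, was the lowest in Csf3r (12.5 CPM). At 96 h replicate 4 was the highest in Stfa1 (104 CPM), Csf3r (34.8 CPM), S100a8 (75.2 CPM) and Krt6b (2960 CPM). At 6 h replicate 4 had the highest Stfa1 of its group (31.2 CPM) with the lowest Csf3r (3.67 CPM), while its Cxcr2 (4.99 CPM, group 3.44 to 6.39) and S100a8 (9.57 CPM, group 8.90 to 19.4) were mid-group. The part of neutrophils in the stefin differences was not tested at any time. Of 12 monocyte and macrophage genes 6 were higher at 48 h, and 9 of 14 skeletal muscle genes were lower, with a summed level of 17000 to 30300 CPM against 37700 to 61600 CPM in sham skin. The share of all genes called lower there is not given here, so nothing is read from the muscle count. The part of the muscle shift in the stefin differences was not tested either.

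**Figure D5:**
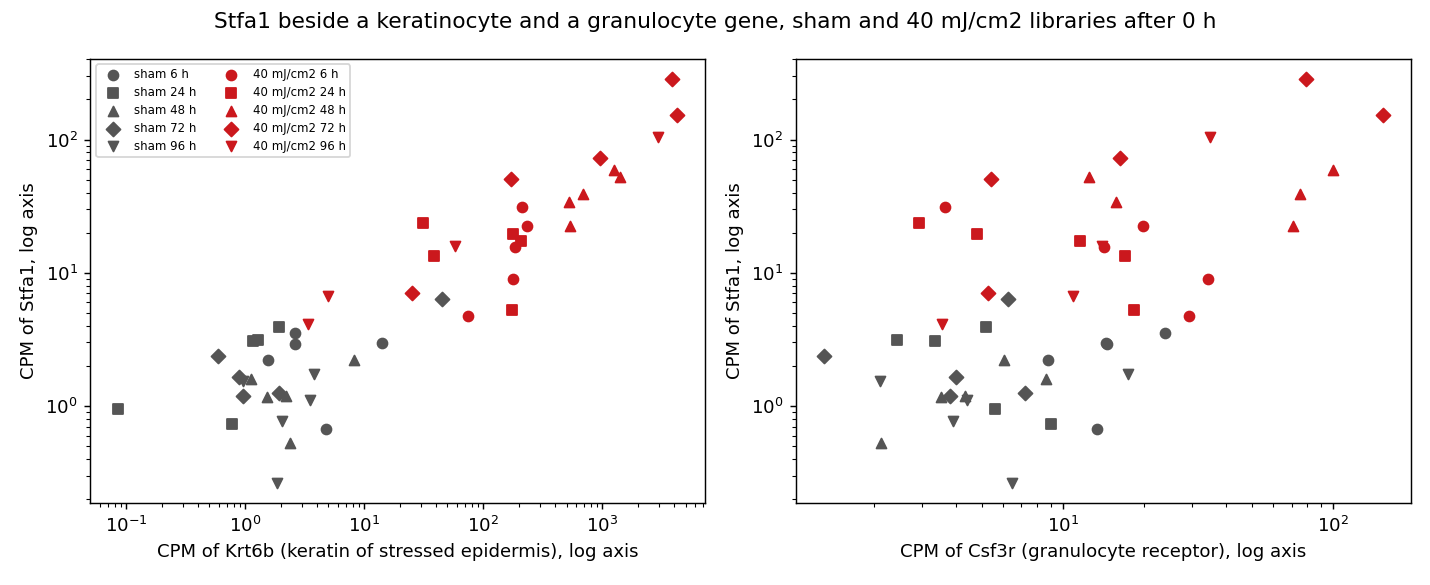
CPM of Stfa1 in each library of sham skin (grey) and of 40 mJ/cm2 (red) from 6 to 96 h, against Krt6b on the left and Csf3r on the right, all axes logarithmic and 1 marker shape per time. Exposed libraries of 6 h span 3.67 to 34.4 CPM of Csf3r, overlapping sham libraries of that time, and replicates 1 and 4 of 72 h have the most Stfa1 of all libraries shown.

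The genes with the most similar pattern over the 30 group means of log2 CPM were partly shared by the copies. These correlations are a description over points that share libraries, time and shifts of tissue content. BC100530 and Stfa1 were each other's closest gene (r = 0.951, 30 group means), and reads are split between them. Besides family genes, Stfa1 was most like Aqp3, a glycerol channel of keratinocytes (0.917), Rbp2, Gsto1, Clec4n and Glrx, and BC100530 most like Rbp2 (0.927), Endou, Car12, Gsdmc, Aqp3, Glrx and Olah. BC117090 was most like Teddm3 (0.914), Aqp3 (0.908), Glrx and the envelope genes Sprr2h (0.906), Sprr2d, Sprr1b and Sprr2e. The list of Stfa3 held BC100530 (0.854), Olah and Gsdmc, the last 2 also in the list of BC100530, and besides them Elovl3, a fatty acid elongase of sebaceous glands (0.89), the epidermal fatty acid binding gene Fabp5 (0.883), Fam162a, Rdh12 and the suprabasal keratin Krt1 (0.846). Over the 145 libraries in place of group means, 5 of each list of 8 were still among the closest 8.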

How the data were processed

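RNA of whole dorsal skin was measured by poly(A) RNA sequencing with a stranded kit and single reads of 75 bases, per the labels. The deposited values are expected counts per gene. Per the submitters' processing notes the tools were bcl2fastq 2.20.422, fastp 0.23.0, STAR 2.7.10a and DESeq2 1.36.1 with build GRCm39. The sources used here do not name the counting program or its annotation. Of all values 12.6% were not whole (by more than 1e-06), so counts were rounded.

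In R 4.3.3, edgeR 4.0.16 (TMM, filterByExpr over the 30 groups, glmQLFit and glmQLFTest, two-sided, Benjamini-Hochberg within each comparison, called at an adjusted p under 0.05) was fitted per time on the 5 dose groups, and once on the 30 sham libraries, with the title ending as covariate. Replicates are separate animals, numbered in accession order. CPM use TMM-scaled library sizes and log2 CPM a prior count of 2. SE is the log2 difference over the square root of F. DESeq2 1.42.0 was an alternative, beside median-ratio scaling, no filter, no covariate, other sets of libraries, 1 fit of all libraries and leaving out each library. Exact intervals hold 95% and cover counting error only. Sequences and figures used Python 3.11.15, Biopython 1.88 and matplotlib 3.10.9.

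The 4 genes and the gene lists were chosen with earlier results of these data known. The sham comparisons over time were planned as tests but are given as a description for the 4 genes, since sham libraries are 1 side of the contrasts that chose them. Named are the 4 genes, their family, from other lists at most 4 called genes with the largest difference at 40 mJ/cm2 and 48 h, and the 8 closest genes with a proper symbol. Cstb, Cst3, Cst6, Ctsb, Ctsl and the values of single libraries were named after they were seen. The edgeR script was tested on simulated data.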

Additional observations from a re-analysis of the deposited data

Results flagged for a closer look

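Of 96 groups of 4 or 5 libraries examined for a single library far from the rest (gap to the nearest library over the group's range, against Dixon's 95% value), 4 held one, and chance alone gives about 1 in 20. Gap and range were taken in log2 CPM, so the ratios below do not follow from the CPM printed beside them. In sham skin at 48 h replicate 3 was high in both abundant copies: Stfa3 was at 34.9 CPM where the other 4 had 5.59 to 6.66 CPM (gap ratio 0.904), and BC100530 at 37.9 CPM where the others had 3.08 to 4.40 CPM (gap ratio 0.858). Stfa1 was lowest in sham replicate 1 of 6 h, at 0.67 CPM against 2.21 to 3.53 CPM (gap ratio 0.717). BC100530 was lowest in replicate 1 of 20 mJ/cm2 at 24 h, at 9.60 CPM against 55.2 to 85.5 CPM (gap ratio 0.80).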

How the results depend on the processing

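No paired analysis was possible because the replicate numbers follow accession order and every animal has a number of its own in the labels. The counts of the 4 genes called higher changed as follows. At 20 mJ/cm2 and 6 h (1 in the report) the count was 3 with DESeq2, 3 without the filter, 2 without the 2 shallowest libraries, 0 in 1 fit of all libraries and 0 within R1_001 and within R1 libraries. At 20 mJ/cm2 and 48 h (2) it was 1 without the libraries titled as repeats and 0 within R1 libraries. At 20 mJ/cm2 and 96 h (0) it was 2 with DESeq2 and 2 without the filter, and at 5 mJ/cm2 and 96 h (0) it was 2 in 1 fit of all libraries. At 40 mJ/cm2 the counts within R1_001 and within R1 libraries were 1 and 0 at 6 h, 0 and 0 at 24 h and 0 and 0 at 72 h, 2 within R1_001 libraries at 48 h, and 0 within R1 libraries at 96 h, where R1_001 libraries could not be fitted. Without 1 library the counts ranged over 0 to 2 and 1 to 3 at 20 mJ/cm2 (6 and 48 h), and over 2 to 3, 0 to 3, 4 to 4, 1 to 4 and 0 to 4 at 40 mJ/cm2 from 6 to 96 h. Of the 4 calls lower in sham skin, those within R1_001 and R1 libraries (added after seeing the data) were 0 and 0 at 6 h, 2 and 0 at 24 h, 0 and 0 at 48 h, 0 and 0 at 72 h and 0 and 2 at 96 h; without 1 library they ranged over 3 to 4 at 6, 24, 72 and 96 h and 2 to 4 at 48 h. Fits within an ending hold fewer samples; otherwise the cause was not tested. With DESeq2 the sham call of BC117090 was lost at 6, 24, 48 and 96 h and not at 72 h. DESeq2 gave no adjusted p for 1 result, BC117090 at 20 mJ/cm2 and 48 h. Of the closest 8 genes, 5, 3, 6 and 3 were still among the 8 by rank correlation for Stfa1, Stfa3, BC100530 and BC117090. No difference that was called changed sign under any of these alternatives. Depth limits BC117090 above all, which in later sham skin had 2 to 8 counts in 5 libraries.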
